A study of Mus musculus with 24 samples.

Results

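The genes described here are the NF-κB subunits and their feedback inhibitors, 10 genes chosen by name from the 21671 genes whose mRNA was measured by RNA-Seq in mouse spleen: Nfkb1, Nfkb2, Rel, Rela, Relb, Nfkbia, Nfkbib, Nfkbie, Tnfaip3 and Bcl3. All 10 were found in each of the 24 samples and passed the filter on low values in every test. The mice, of C57/Bl6 strain and 8 weeks of age, were either Trp53+/+ or Trp53-/-, and were either left unstressed (mock) or exposed to 7 Gy of whole-body ionizing radiation (IR), with the spleen taken 4 h later. Each spleen was split with magnetic beads against B220 into B cells, which bound the beads, and non-B cells, the rest of the organ. The 8 groups of cell type, genotype and treatment held 4 samples each for Trp53+/+ and 2 each for Trp53-/-. Trp53-/- animals carry the deletion in every cell of the body, so that the B cells, the T cells and the rest of the spleen all lacked p53. The labels do not tie samples to animals, but the study describes as many mice for each condition as there are samples, so the spread between samples is taken here as that between mice.

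NF-κB is a family of dimeric transcription factors that sit in the cytoplasm of resting cells, held by inhibitors of the IκB family, and enter the nucleus when the IKK kinase marks those inhibitors for destruction. In the canonical branch the dimers hold Rela (p65), Rel (c-Rel) and the p50 product of Nfkb1, and in the alternative branch they hold Relb and the p52 product of Nfkb2. Many of their inhibitors are themselves NF-κB target genes, which closes a negative feedback loop. In B cells the pathway serves survival and activation through the B cell receptor, CD40, BAFF receptor and Toll-like receptors, and DNA double-strand breaks also reach IKK, through ATM and NEMO (Ikbkg).

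Expression was given by the authors as RPKM, reads per kilobase of gene and per M (mega) mapped reads, so that levels are per length and can be set side by side between genes. Sequencing depth, estimated from the lowest RPKM values, was 4.67 to 10.92 M reads per sample, and the 4 irradiated Trp53+/+ B cell samples were among the shallowest (4.67 to 7.63 M). Trp53 mRNA was at 44.8 to 47.9 RPKM in unstressed Trp53+/+ B cells and 21.6 to 21.7 RPKM in the Trp53-/- ones, so reads of the deleted gene were still counted, and in irradiated non-B cells its ranges overlapped between genotypes (35.0 to 38.6 against 34.6 to 36.4 RPKM). Cdkn1a, the cell cycle inhibitor p21 and a direct p53 target, was at 69.6 to 97.8 RPKM in the 8 irradiated Trp53+/+ samples and at most 5.87 RPKM in the others, and did not separate irradiated (0.562 to 0.726 RPKM) from unstressed (0.563 to 0.689 RPKM) Trp53-/- B cells. The summed RPKM of 10 B cell markers ranged over 1019 to 1311 for the B cell samples and over 246 to 689.8 for the others. That of 11 T cell markers ranged over 89.3 to 214 for B and over 508 to 1057 for non-B samples, and every gene of both lists was above 0 in every group. The non-B samples therefore still held B cell RNA. The B samples held markers of other cells too. In unstressed Trp53+/+ mice, 8 macrophage and monocyte markers summed to 516 to 687 RPKM in B and 384 to 442 in non-B samples. Of these, Lyz2 went the other way (61.4 to 76.3 against 100 to 109 RPKM). The sums of 6 NK markers were 69.9 to 105 RPKM in B and 280 to 433 in non-B samples. Of 1440 olfactory and vomeronasal receptor genes, which a spleen does not use, 5.42 to 9.31% had reads in the unstressed samples, but 36.7% and 47.3% in replicates 1 and 2 of irradiated Trp53+/+ B cells and 51.3% and 35.8% in replicates 3 and 4 of irradiated Trp53+/+ non-B cells. Their mean level stayed at 0.0681 to 0.309 RPKM over all samples, against 13.1 to 157 RPKM for the NF-κB genes.

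The genes lie on 7 chromosomes. In mm9 (NCBIM37), the assembly of the files, the GENCODE M1 annotation places Nfkb1 at chr3:135247619-135354511, Rel chr11:23641514-23670970, Nfkbia chr12:56590398-56593634, Nfkbie chr17:45692665-45700118 and Tnfaip3 chr10:18720716-18735463. Nfkb2 (chr19:46379227-46386580) and Rela (chr19:5637483-5648130) share chromosome 19, and Relb (chr7:20191566-20214787), Bcl3 (chr7:20393811-20408119) and Nfkbib (chr7:29543270-29552531) share chromosome 7. Exons of Bcl3 share 161 of 2485 bases with Gm16175 on the other strand, exons of Nfkbib share 42 of 2169 bases with Sirt2, and those of Nfkb2 share 4 bases with Psd. The kit did not mark strand, so reads in these stretches cannot be assigned, and no exon of the other 7 genes overlapped another gene.

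Since NF-κB binds its own inhibitors' promoters, the κB consensus was looked for on both strands of the promoter windows (250 bases before to 50 after each start of transcription) that RefSeq gives on GRCm38.p6, an assembly later than that of the files. Windows were found for 8 of the 10 genes, all except Nfkb1 and Relb. At least 1 match lay in a window of 6 of these 8 genes (Nfkb2, Rel, Nfkbia, Nfkbie, Tnfaip3 and Bcl3), and none in those of Rela and Nfkbib. Of all 32851 such windows, 4.51% held a match and 0.17% held at least 2 that did not overlap. The windows of the 5 genes called after IR in Trp53+/+ B cells are shown with that of Rela, which was not called, and κB matches are in capitals.
Nfkb2 (start 1, chr19:46304487-46304786, plus strand): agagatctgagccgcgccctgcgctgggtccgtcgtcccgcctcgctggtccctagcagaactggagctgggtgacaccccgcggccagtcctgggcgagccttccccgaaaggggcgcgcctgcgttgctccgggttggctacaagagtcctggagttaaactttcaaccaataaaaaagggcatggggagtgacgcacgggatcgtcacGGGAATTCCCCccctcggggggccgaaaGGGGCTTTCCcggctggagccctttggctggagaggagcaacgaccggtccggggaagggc
Nfkbia (chr12:55492598-55492897, minus strand): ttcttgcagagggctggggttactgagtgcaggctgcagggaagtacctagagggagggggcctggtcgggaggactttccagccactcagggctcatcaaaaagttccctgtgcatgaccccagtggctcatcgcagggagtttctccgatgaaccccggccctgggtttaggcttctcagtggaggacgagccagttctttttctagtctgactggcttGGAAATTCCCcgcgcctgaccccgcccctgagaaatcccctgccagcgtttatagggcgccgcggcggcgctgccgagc
Nfkbie (chr17:45555450-45555749, plus strand): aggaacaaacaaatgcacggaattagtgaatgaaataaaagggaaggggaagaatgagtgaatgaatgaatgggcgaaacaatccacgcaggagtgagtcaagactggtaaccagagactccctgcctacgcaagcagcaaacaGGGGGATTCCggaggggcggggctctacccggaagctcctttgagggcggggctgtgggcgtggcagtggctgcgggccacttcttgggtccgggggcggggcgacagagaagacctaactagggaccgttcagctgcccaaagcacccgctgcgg
Tnfaip3 (start 1, chr10:19015361-19015660, minus strand): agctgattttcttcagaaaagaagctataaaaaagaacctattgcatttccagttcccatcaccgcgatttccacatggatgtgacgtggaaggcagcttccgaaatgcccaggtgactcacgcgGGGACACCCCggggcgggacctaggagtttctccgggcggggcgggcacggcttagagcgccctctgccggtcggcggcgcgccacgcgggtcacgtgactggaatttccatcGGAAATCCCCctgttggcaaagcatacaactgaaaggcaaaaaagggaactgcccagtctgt
Bcl3 (chr7:19822706-19823005, minus strand): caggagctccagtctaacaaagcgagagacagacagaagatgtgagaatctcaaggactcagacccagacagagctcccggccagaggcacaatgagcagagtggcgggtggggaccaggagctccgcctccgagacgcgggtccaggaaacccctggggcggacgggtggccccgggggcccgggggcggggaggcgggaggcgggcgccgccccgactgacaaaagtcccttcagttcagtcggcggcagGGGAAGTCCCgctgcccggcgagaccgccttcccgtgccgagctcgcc
Rela (chr19:5637291-5637590, plus strand): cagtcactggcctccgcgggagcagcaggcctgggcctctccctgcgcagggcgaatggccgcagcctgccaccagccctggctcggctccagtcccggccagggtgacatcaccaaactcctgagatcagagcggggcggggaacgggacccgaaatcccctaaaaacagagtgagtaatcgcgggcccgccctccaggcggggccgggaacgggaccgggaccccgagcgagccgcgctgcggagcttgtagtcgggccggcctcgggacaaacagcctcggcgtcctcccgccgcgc

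Positions are counted from 0 at the first transcribed base, and sites on the opposite strand are written 5′ to 3′ on that strand. Nfkbia had GGGAATTTCC at position -29 on the opposite strand, and Nfkbie GGGGGATTCC at -106. Tnfaip3 had GGGACACCCC at -125 and, on the opposite strand, GGGGATTTCC at -12, and its other listed start had no match. The first of 3 listed starts of Nfkb2 had GGGAATTCCC at -39, which overlaps matches on the other strand, and GGGGCTTTCC at -11, while the windows of the other starts had 2 and 1 matches, 1 of them the same site. Rel had GGGAAATCCC at -92, also matched on the other strand, and Bcl3 had GGGACTTCCC at 2 on the opposite strand. A match is a stretch of letters and not a measured binding site.

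**Figure D1:**
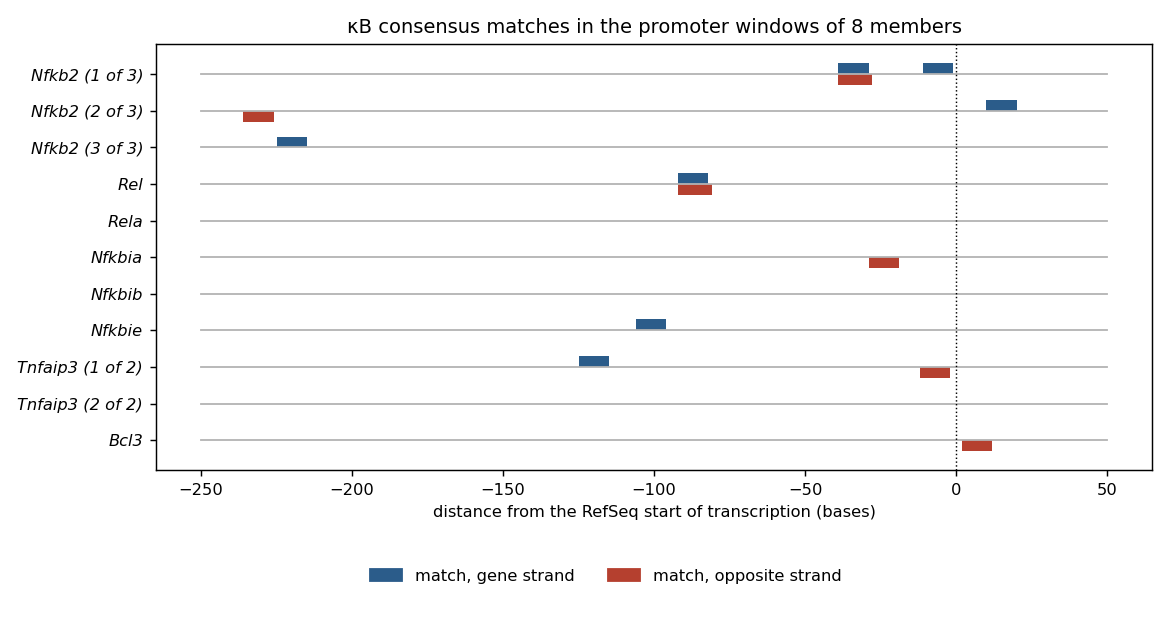
Position of κB consensus matches (boxes of 10 bases, blue above the line for the gene strand and red below it for the opposite strand) in the 300-base RefSeq promoter windows, against distance from the start of transcription in bases, with 1 line for each listed start. Matches lie in windows of 6 of 8 genes, and the lines of Rela, Nfkbib and the other start of Tnfaip3 carry none.

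In unstressed Trp53+/+ B cells the inhibitor genes spanned the whole range of the family. Nfkbia, which encodes IκBα, the inhibitor that is lost and remade fastest, was the most abundant at 84.1 ± 3.76 RPKM (SD, n = 4), at percentile 98.7 of all genes. It was followed by Nfkb2 at 72.0 ± 1.99 RPKM, Nfkbie (IκBε) at 62.0 ± 2.90, Rel at 56.2 ± 4.27, Nfkb1 at 52.0 ± 2.40 and Rela at 43.2 ± 1.35 RPKM. Tnfaip3, the ubiquitin-editing enzyme A20 that shuts off signalling upstream of IKK, was at 30.5 ± 1.86 RPKM, close to Relb at 27.8 ± 0.71 and Bcl3, an atypical IκB that works in the nucleus with p50 and p52 dimers, at 27.8 ± 1.26 RPKM. Nfkbib (IκBβ) was lowest at 17.2 ± 2.65 RPKM, at percentile 72.2. The sample ranges of Nfkbie and Rel overlapped, as did those of Rel and Nfkb1, of Tnfaip3 and Relb, and of Relb and Bcl3, and all other neighbours in this order stood apart. Nfkbia was highest and Nfkbib lowest in each of the 8 groups.

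Rel was higher in B than in non-B cells. Its levels in the 4 unstressed Trp53+/+ B cell samples were 52.9, 54.9, 54.5 and 62.5 RPKM, against 33.5, 35.2, 39.9 and 36.8 RPKM in non-B cells, with no overlap. The log2 difference was 0.62 (SE 0.10), or 1.54-fold, with an adjusted p of 9.43e-05 (limma, Benjamini-Hochberg over 14598 genes). It was the only one of the 10 genes past both the adjusted p of 0.05 and the log2 difference of 0.58 that make a call here, where 24.6% of all genes were called and 7.38% were called higher in B cells. The split of all called genes was 1077 higher and 2510 lower in B cells, and 1822 and 1891 after quantile normalization. The difference of Rel was 0.57 when replicate 4 of unstressed B cells was left out, which ended the call. Nfkb2 and Nfkbie lay just under the fold threshold at 0.577 and 0.578 (adjusted p 4.68e-06 and 7.94e-05), and both passed it in several alternatives, among them a pseudocount of 0.1. Nfkb2 was at 70.6 to 74.9 RPKM in B cells against 44.0 to 52.2 in non-B cells, and Nfkbie at 60.3 to 66.4 against 35.8 to 45.0 RPKM. Nfkb1 (0.26) and Relb (0.23) had smaller log2 differences with adjusted p of 0.014 and 0.0233. In all, 5 genes passed the adjusted p alone in this direction, against 17.7% of all genes. For Rela, Nfkbib, Tnfaip3 and Bcl3 the log2 differences were between -0.03 and -0.01, with 95% intervals that reached from -0.37 to 0.31 for Nfkbib and from -0.17 to 0.13 for Rela. Because these are bulk samples, fewer cells of a type and less RNA per cell cannot be told apart.

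Without IR, no NF-κB gene was called between genotypes. In B cells the log2 differences (Trp53-/- minus Trp53+/+) ran from -0.19 for Nfkbib to 0.13 for Relb, and 0 of 10 genes were called by limma, against 0.0506% of all genes, with 0 genes at an unadjusted p under 0.05. In non-B cells they ran from -0.33 for Bcl3 to 0.07 for Nfkb1, with 0 of 10 called against 0.0428% of all genes and 1 gene, Rela (-0.25, 95% interval -0.47 to -0.04), at an unadjusted p under 0.05. Rela was at 36.6 RPKM in both Trp53-/- samples and at 41.4 to 49.1 RPKM in the 4 Trp53+/+ ones.

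**Figure D2:**
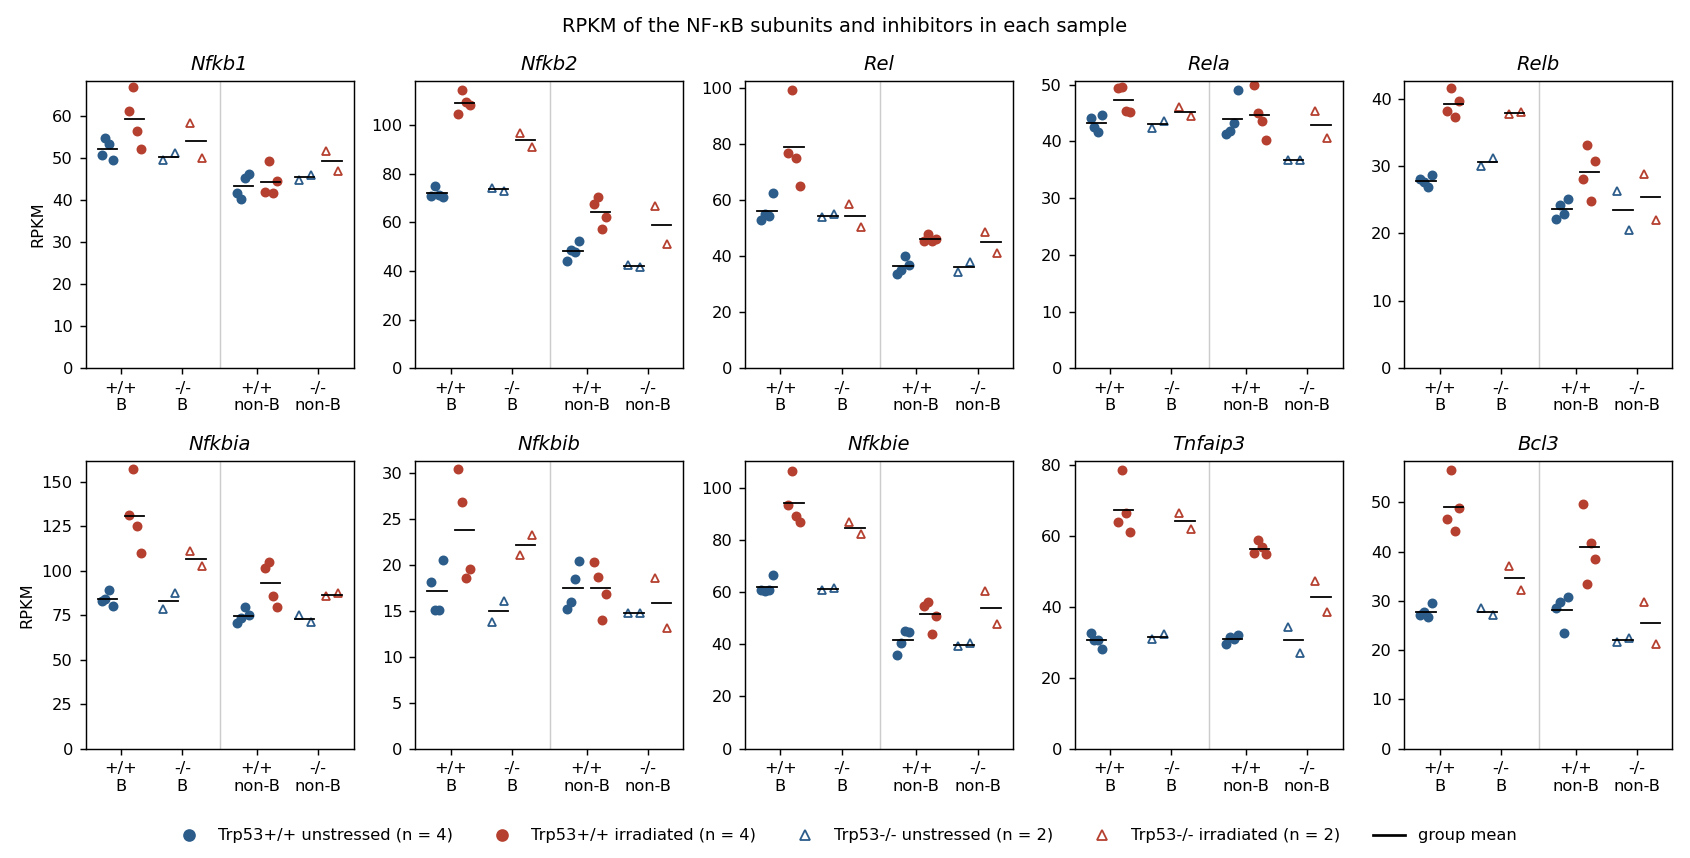
RPKM (linear axis from 0) of each of the 10 genes in all 24 samples, grouped by genotype and cell type, unstressed in blue and irradiated in red, with Trp53+/+ as filled circles (n = 4), Trp53-/- as open triangles (n = 2) and black bars for group means. Irradiated Trp53+/+ B cell samples lie above all unstressed ones for 8 of the genes, Tnfaip3 (28.2 to 32.8 against 61.0 to 78.6 RPKM) among them.

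IR raised 5 of the 10 genes in Trp53+/+ B cells, 4 of which encode inhibitors or regulators of NF-κB (Tnfaip3, Bcl3, Nfkbia and Nfkbie) and 1 a subunit precursor (Nfkb2). No gene of the family fell. Of all 13821 genes tested, 24.7% were called and 12.5% were called higher. By the adjusted p alone, 8 of the 10 genes were higher (25.4% of all genes), all except Nfkb1 and Rela, and 8 of 10 had irradiated samples that all lay above the unstressed ones (22.9% of all genes). The median log2 fold change of the 10 genes was 0.54, beside 0.01 for all genes tested.

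Tnfaip3 rose most. It was at 32.8, 30.5, 30.6 and 28.2 RPKM in unstressed and at 63.9, 78.6, 66.4 and 61.0 RPKM in irradiated B cells, so that the lowest irradiated sample was far above the highest control. The log2 fold change was 1.13 (SE 0.08), or 2.19-fold, with an adjusted p of 1.85e-07.

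Bcl3 came next. Its levels were 27.2, 27.8, 26.7 and 29.6 RPKM before and 46.7, 56.6, 44.2 and 49.0 RPKM after IR, again without overlap. The log2 fold change was 0.80 (SE 0.08), or 1.75-fold (adjusted p 3.61e-06).

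Among the classical IκB genes, Nfkbia and Nfkbie rose and Nfkbib was not called. Nfkbia was at 82.8, 83.8, 89.3 and 80.4 RPKM in unstressed and 131, 157, 125 and 109.7 RPKM in irradiated cells, a log2 fold change of 0.62 (SE 0.09, adjusted p 0.000141). Nfkbie went from 60.6, 60.3, 60.8 and 66.4 RPKM to 93.3, 106.5, 89.2 and 86.8 RPKM, a log2 fold change of 0.59 (SE 0.07, adjusted p 1.42e-05). In both, replicate 2 was the highest irradiated sample and no irradiated sample reached down to the controls. Nfkbib was at 18.1, 15.05, 15.06 and 20.5 RPKM in unstressed and at 30.4, 26.8, 18.5 and 19.5 RPKM in irradiated cells. Its replicates 3 and 4 after IR overlapped the controls, and the log2 fold change of 0.44 (SE 0.15, adjusted p 0.0292) was under the fold threshold.

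Of the subunits, Nfkb2 alone was called. It was at 71.0, 74.9, 71.3 and 70.6 RPKM before and at 105, 115, 109.7 and 108 RPKM after IR, the tightest group among the called genes, with a log2 fold change of 0.60 (SE 0.05, adjusted p 1.16e-06). Its partner Relb was at 26.9 to 28.6 RPKM in unstressed and 37.2 to 41.6 RPKM in irradiated cells, with a log2 fold change of 0.48 (SE 0.05, adjusted p 7.5e-06) under the fold threshold. Rel was at 52.9, 54.9, 54.5 and 62.5 RPKM before and 76.8, 99.2, 75.0 and 64.9 RPKM after IR, with a log2 fold change of 0.47 (SE 0.11, adjusted p 0.00308). The irradiated samples of Rel were spread most in RPKM terms among the subunits, and the lowest of them, replicate 4, was close to the highest control. Rela and Nfkb1, the genes of the prototypical p65 and p50 dimer, did not pass the adjusted p, with log2 fold changes of 0.13 (SE 0.05, adjusted p 0.0517) and 0.18 (SE 0.08, adjusted p 0.0723). Their 95% intervals, 0.02 to 0.24 for Rela and 0.01 to 0.35 for Nfkb1, lay under the fold threshold of 0.58.

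Replicate 2 of irradiated Trp53+/+ B cells was the highest of its group for 9 of the 10 genes, and it was also the shallowest library and had the most receptor genes with reads among B cell samples. Without it 2 genes were called, Tnfaip3 and Bcl3, since Nfkb2, Nfkbia and Nfkbie then had log2 fold changes of 0.576, 0.53 and 0.53, under the threshold. Without both libraries over 30% of receptor genes, Nfkb2 (0.60), Tnfaip3 (1.05) and Bcl3 (0.73) were called. Leaving out replicate 2 of the unstressed cells brought Nfkbie to 0.578, also just under the threshold. The highest RPKM in any library was 157 to 307, or 1.44 to 1.92 reads per base of gene, the authors having discarded all but 1 of identical reads, and in irradiated Trp53+/+ B cells these genes reached at most 0.892 reads per base. Undoing this ceiling under the assumption of at most 2 reads per base, an alternative chosen after seeing the data, gave log2 fold changes of 1.24 for Tnfaip3 and 0.70 for Nfkbia. In the same comparison the summed T cell markers went from 182 to 197 RPKM in unstressed to 89.3 to 146 RPKM in irradiated B cells, the 8 macrophage and monocyte markers from 516 to 687 to 403 to 595 RPKM, and the 9 erythroid markers from 53.6 to 128 to 19.1 to 34.9 RPKM. Most of the fall in the T cell sum was in Cd2, which mouse B cells also express (92.2 to 109 against 25.5 to 37.8 RPKM), while the ranges of the T cell receptor complex genes Cd3d (5.78 to 6.80 against 5.72 to 10.8 RPKM) and Cd3e (4.11 to 5.44 against 3.58 to 8.26 RPKM) overlapped. In Trp53-/- B cells the T cell sum was 170 to 214 RPKM in unstressed and 107 to 134 RPKM in irradiated samples. There the macrophage and monocyte sum was 486 to 509 and 315 to 453 RPKM. The erythroid sums overlapped (34.7 to 190 and 19.0 to 106 RPKM). The sum of 3 plasma cell markers overlapped in Trp53+/+ B cells, but was 75.06 to 75.15 and 52.0 to 63.8 RPKM in Trp53-/- ones. The part of these shifts in the results, genotype differences included, was not tested.

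**Figure D3:**
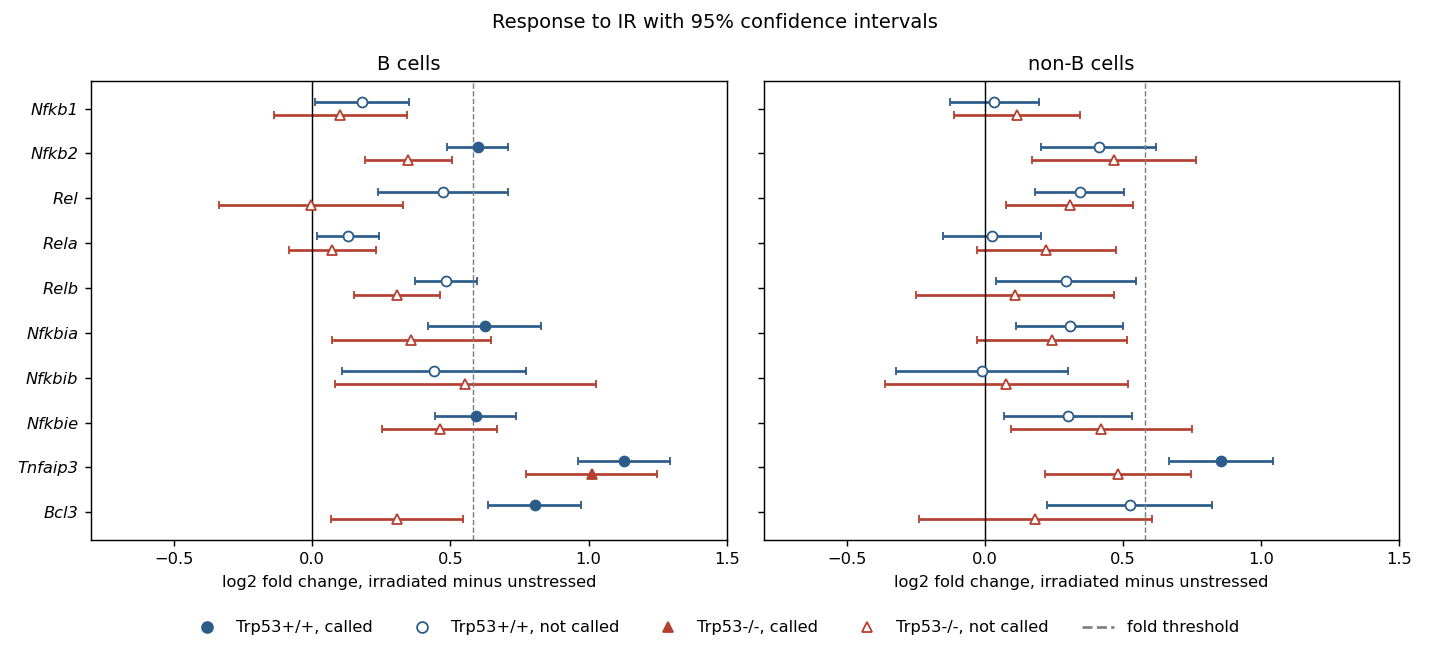
Log2 fold change of each gene after IR (irradiated minus unstressed) with its 95% confidence interval, in B cells (left) and non-B cells (right), for Trp53+/+ (blue circles) and Trp53-/- (red triangles), with filled symbols for called genes and a dashed line at the fold threshold of 0.58. Filled symbols stand for 5 genes in Trp53+/+ B cells, for Tnfaip3 in Trp53-/- B cells and for Tnfaip3 in Trp53+/+ non-B cells.

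The comparison of genotypes asks which of these changes differ when p53 is absent. In Trp53-/- B cells Tnfaip3 rose as well, from 30.9 and 32.2 RPKM to 66.4 and 61.9 RPKM, a log2 fold change of 1.01 (SE 0.11, adjusted p 2e-05). It was the only gene of the family called, where 24.3% of all genes were called and 13.1% were called higher. By the adjusted p alone, 6 genes were higher (Nfkb2, Relb, Nfkbia, Nfkbie, Tnfaip3 and Bcl3), beside 23.0% of all genes, and with the smaller groups 8 of 10 had no overlap in the upward direction, beside 39.5% of all genes. The median log2 fold change was 0.33, against 0.02 over all genes.

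Bcl3 was the gene whose response differed between genotypes. It was at 28.6 and 27.1 RPKM in unstressed and 37.0 and 32.2 RPKM in irradiated Trp53-/- B cells, a log2 fold change of 0.31 (SE 0.11, adjusted p 0.0416), less than the 0.80 in Trp53+/+ cells. The difference of the responses was 0.50 on the log2 scale (SE 0.13, adjusted p 0.0233). All 4 irradiated Trp53+/+ samples lay above both irradiated Trp53-/- samples, but Bcl3 was picked on the same values, so this adds no support. The same separation held for Rel, Nfkb2 and Nfkbie, whose genotype differences did not pass in this fit. Of all genes, 18.8% had a response that differed, 1125 with a larger value and 1469 with a smaller value in Trp53+/+ cells (1362 and 943 with median-ratio scaling). The call for Bcl3 was not stable: its adjusted p was 0.0505 without the filter on low values, 0.0979 with Trp53+/+ replicates 3 and 4 alone, and 0.105, 0.0606 and 0.0875 when replicate 1 or 2 of the unstressed or replicate 2 of the irradiated Trp53-/- cells was left out.

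Rel was at 54.0 and 55.0 RPKM in unstressed and at 58.5 and 50.4 RPKM in irradiated Trp53-/- B cells, so that the samples overlapped and the log2 fold change was 0.00 (95% interval -0.34 to 0.33). The difference from the 0.47 in Trp53+/+ cells was 0.48 (SE 0.19) and did not pass the threshold (adjusted p 0.0986). It did with Trp53+/+ replicates 1 and 2 alone (0.70, adjusted p 0.0231), without replicate 4 of irradiated Trp53+/+ cells (adjusted p 0.0346) and with quantile normalization (adjusted p 0.0464). Nfkb2 went from 74.3 and 72.9 RPKM to 96.8 and 91.0 RPKM in Trp53-/- B cells, a log2 fold change of 0.35, and the difference between genotypes of 0.25 (SE 0.09, adjusted p 0.0666) passed with median-ratio scaling (0.34, adjusted p 0.0482) and without the filter (adjusted p 0.0349).

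For the remaining inhibitors the genotype difference did not pass the threshold. Nfkbia was at 78.6 and 87.7 RPKM in unstressed and at 110.9 and 102 RPKM in irradiated Trp53-/- B cells, and Nfkbie at 60.9 and 61.3 RPKM and at 86.6 and 82.0 RPKM. Neither pair of groups overlapped. The differences between genotypes were 0.27 for Nfkbia (95% interval -0.09 to 0.62), 0.13 for Nfkbie (-0.12 to 0.38), 0.12 for Tnfaip3 (-0.17 to 0.41) and -0.11 for Nfkbib (-0.69 to 0.46). These intervals leave room for differences of up to about the fold threshold, so that equal responses were not shown.

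In Trp53+/+ non-B cells Tnfaip3 was again the gene with the largest change and the only one called. It was at 29.4, 31.6, 30.9 and 32.2 RPKM in unstressed and 55.3, 58.8, 56.9 and 54.8 RPKM in irradiated cells, tight groups far apart, with a log2 fold change of 0.85 (SE 0.09), or 1.81-fold, and an adjusted p of 7.06e-05. Of all 14018 genes tested, 9.85% were called and 5.74% were called higher. By the adjusted p alone 5 genes were higher (Nfkb2, Rel, Nfkbia, Tnfaip3 and Bcl3), beside 8.72% of all genes. No sample of these 5 crossed between its groups, but their choice by the adjusted p on the same values favours this, so it adds no support.

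Bcl3 was at 28.5, 29.8, 23.5 and 30.7 RPKM in unstressed and 49.8, 33.4, 41.9 and 38.4 RPKM in irradiated non-B cells, a log2 fold change of 0.52 (SE 0.14, adjusted p 0.0228). Without replicate 2 of the irradiated cells, its lowest sample, it was 0.61 and was called. Nfkb2 was at 44.0 to 52.2 RPKM and at 57.2 to 70.3 RPKM (log2 fold change 0.41, adjusted p 0.0142), and passed the fold threshold at 0.582 with the level of receptor genes as a covariate. Rel went from 33.5 to 39.9 RPKM to 45.3 to 47.8 RPKM (0.34, adjusted p 0.00993) and Nfkbia from 70.6 to 79.3 RPKM to 79.7 to 104.8 RPKM (0.31, adjusted p 0.0333). Nfkb1, Rela and Nfkbib had log2 fold changes between -0.01 and 0.03.

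The marker sums in Trp53+/+ non-B cells overlapped between treatments except for the erythroid one. The summed B cell markers were at 367 to 593 RPKM in unstressed and at 246 to 500.4 RPKM in irradiated Trp53+/+ non-B cells, the T cell markers at 642 to 924 and 508 to 653 RPKM, the 9 neutrophil markers at 402 to 843 and 538 to 948 RPKM, the macrophage and monocyte markers at 384 to 442 and 419 to 578 RPKM, and the erythroid markers at 142 to 417 and 31.1 to 116 RPKM. With 2 samples per group, the Trp53-/- non-B cells had other sums without overlap. Unstressed and irradiated samples were at 371 to 404 and 260 to 300 RPKM for NK markers, and at 75.9 to 93.1 and 50.2 to 72.7 for dendritic ones. Platelet markers were at 50.1 to 66.9 and 17.3 to 26.8 RPKM, and those of stroma and endothelium at 56.39 to 56.42 and 40.9 to 41.9. That last sum was nearly all Pecam1 (54.2 to 55.2 and 39.7 to 41.3 RPKM), while Col1a1, Col3a1 and Cdh5 were at most 1.74 RPKM. The erythroid sums overlapped in Trp53-/- non-B cells (72.3 to 307 and 101 to 112 RPKM). The part of these shifts in the result was not tested. Without the 2 Trp53+/+ libraries over 30% of receptor genes, Tnfaip3 was still the only gene called in Trp53+/+ non-B cells (0.87, adjusted p 0.00288). That fit still held replicate 1 of the irradiated cells, with 24.7% of receptor genes.

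In Trp53-/- non-B cells none of the 10 genes was called by limma, where 0.442% of all genes were. By an unadjusted p under 0.05 there were 4, and the share of all genes at that threshold was not counted. Tnfaip3 was at 34.3 and 26.9 RPKM in unstressed and 47.2 and 38.5 RPKM in irradiated samples, and Nfkb2 at 42.5 and 41.7 RPKM and 67.0 and 50.9 RPKM. Their log2 fold changes were 0.48 (SE 0.12, adjusted p 0.097) and 0.47 (SE 0.13, adjusted p 0.131). All 10 values were above 0, with a median of 0.23 against -0.02 over all genes, and 7 of 10 genes had no overlap, beside 23.5% of all genes. Replicate 1 of the irradiated samples was the higher of the pair for 9 of the genes. The genotype difference of the response was called for 0 of 10 genes, against 7.35% of all genes, and only Tnfaip3 (0.37, SE 0.15, adjusted p 0.146) had an unadjusted p under 0.05.

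Whether the response to IR differed between B and non-B cells was tested over the 16 Trp53+/+ samples. The fit took these as independent, although each spleen gave both B and non-B cells. None of the 10 genes passed in it, where 28.0% of all genes did. By an unadjusted p under 0.05 there were 3, and the share of all genes at that threshold was not counted. The differences (B minus non-B) were above 0 for all 10 genes, from 0.10 for Rela to 0.45 for Nfkbib, with a median of 0.23 beside 0.05 for all genes. That of Tnfaip3 was 0.27 (SE 0.10, adjusted p 0.0563), and passed without replicate 1 of unstressed (0.31) or replicate 4 of irradiated B cells (0.32). That of Nfkbia was 0.32 (SE 0.14, adjusted p 0.112), which passed at 0.40 without replicate 4 of irradiated B cells. That of Nfkbie was 0.29 (SE 0.13, adjusted p 0.106), which passed at 0.36 without replicate 1 of unstressed non-B cells. Without the libraries over 30% of receptor genes, also chosen after seeing the data, no gene passed and the differences were no longer all above 0. They then ran from -0.05 for Rela to 0.20 for Bcl3, with Nfkbia at 0.01, Nfkbib at -0.005, Nfkbie at 0.08 and Tnfaip3 at 0.18. With a block that joined same-numbered B and non-B samples, an alternative chosen after seeing the data, Nfkbia (adjusted p 0.014), Nfkbib (0.0302) and Nfkbie (0.0478) passed. The result thus depends on the pairing, and the labels do not say which samples share a spleen. Deviations of same-numbered B and non-B samples correlated at a median of 0.122 (unstressed) and 0.095 (irradiated). Those of different numbers had medians of -0.014 and -0.01, with overlapping ranges.

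The balance of inhibitor to activator mRNA can be read as a ratio of RPKM within each sample, which does not depend on the scaling of the library. Nfkbia to Rela was 1.80 to 2.14 in unstressed and 2.43 to 3.17 in irradiated Trp53+/+ B cells, and 1.85 to 2.01 and 2.30 to 2.41 in Trp53-/- B cells. Tnfaip3 to Rela was 0.632 to 0.744 in unstressed and 1.30 to 1.59 in irradiated Trp53+/+ B cells, and 0.727 to 0.741 and 1.39 to 1.44 in the Trp53-/- ones. In both genotypes the irradiated B cell samples had the higher ratios without overlap. In non-B cells Nfkbia to Rela was 1.53 to 1.84 in unstressed and 1.97 to 2.33 in irradiated Trp53+/+ samples, but overlapped in the Trp53-/- ones at 1.94 to 2.05 and 1.89 to 2.16. Tnfaip3 to Rela was 0.656 to 0.755 and 1.11 to 1.36 in Trp53+/+ non-B cells, and 0.735 to 0.935 and 0.950 to 1.04 in Trp53-/- non-B cells, without overlap in either.

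Among subunits, Nfkb2 to Nfkb1, the 2 precursor genes, was 1.34 to 1.43 in unstressed and 1.71 to 2.07 in irradiated Trp53+/+ B cells, and 1.05 to 1.22 and 1.37 to 1.61 in non-B cells. In Trp53-/- cells it was 1.43 to 1.504 and 1.66 to 1.82 for B, and 0.907 to 0.949 and 1.09 to 1.30 for non-B cells, so that irradiated samples were higher without overlap in both genotypes. Rel to Rela was 1.20 to 1.40 and 1.44 to 2.00 in Trp53+/+ B cells, but 1.26 to 1.27 and 1.14 to 1.27 in Trp53-/- B cells, where the groups overlapped. In unstressed Trp53+/+ non-B cells Rel to Rela was 0.751 to 0.925, lower than in any B cell sample.

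The order of levels changed with IR through Tnfaip3 and Bcl3. Tnfaip3 was the seventh most abundant of the 10 genes in unstressed Trp53+/+ B cells and the fifth in irradiated ones (67.5 ± 7.70 RPKM), where its samples overlapped those of both neighbours, Rel and Nfkb1. In Trp53+/+ non-B cells it went from the seventh to the third place (56.5 ± 1.79 RPKM), overlapping Nfkb2 and Nfkbie. In Trp53+/+ B cells Bcl3 went from the ninth to the seventh place, next to Rela, whose samples it overlapped, and Rela, Nfkb1 and Relb took lower places after IR.

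The rest of the pathway was described by lists of genes with other roles. Of 34 tested NF-κB target genes in Trp53+/+ B cells, 11 rose and 2 fell, with a median log2 fold change of 0.18, where 12.5% of all genes rose and 12.2% fell. Those with the largest changes included the chemokine gene Ccl22 (1.71 to 12.8 RPKM, log2 fold change 2.42), the adhesion molecule gene Icam1 (33.2 to 87.0 RPKM, 1.38), the G protein-coupled receptor gene Gpr132 (41.2 to 98.0 RPKM, 1.24) and the AP-1 subunit gene Junb (47.7 to 113 RPKM, 1.22). Sele, the endothelial selectin, fell from 8.59 to 0.947 RPKM (log2 fold change -2.69). In Trp53-/- B cells 9 of the 34 rose and 2 fell, where 13.1% and 11.2% of all genes did. The genotype difference of the response passed for 3 of the 34 with a larger and 2 with a smaller value in Trp53+/+ cells. Of all genes, 18.8% had such a difference. The responses of Icam1 (0.82 in Trp53-/- cells), Gpr132 (0.39) and Junb (0.62) differed between genotypes with adjusted p of 0.00198, 0.000741 and 0.0189. That of Ccl22 (3.15) did not pass (adjusted p 0.389). These genes were named by their change in Trp53+/+ cells, which favours a larger value there than in Trp53-/- cells. The same holds for the genes named below from the other lists.

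Of 15 further brakes of the pathway tested in Trp53+/+ B cells, 2 rose and none fell, a share near the 12.5% of all genes that rose. Nfkbid, another nuclear IκB gene, went from 41.7 to 78.3 RPKM (log2 fold change 0.88, SE 0.11) and by 0.85 in Trp53-/- cells. N4bp1, an inhibitor of NF-κB signalling, went from 21.5 to 39.3 RPKM (0.86, SE 0.05), and by 0.07 in Trp53-/- cells, a difference with an adjusted p of 7.47e-05. Of 26 genes of the IKK complex and its adaptors, 1 rose and 3 fell, which is no more than the 12.5% and 12.2% of all genes. Malt1 (-0.81), whose product is part of the complex that links the B cell receptor to IKK, and the adaptor gene Traf5 (-0.74) were among those that fell, and Traf1 rose (0.61). In Trp53-/- B cells 1 rose and 3 fell as well, and Malt1 was at -0.40. The genotype difference of Malt1 had an adjusted p of 0.0288.

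Of 22 receptors and ligands tested in Trp53+/+ B cells, 3 rose and 3 fell, near the 12.5% and 12.2% of all genes. Tlr4, the endotoxin receptor, fell from 33.2 to 14.9 RPKM (log2 fold change -1.14) and had -0.17 in Trp53-/- cells (adjusted p of the difference 0.0102), and Tnfrsf13b, the receptor TACI, fell from 56.2 to 28.9 RPKM (-0.96). Among 11 genes that link DNA damage to IKK only Pidd1, the p53-induced scaffold of the PIDDosome, was called, going from 6.02 to 59.0 RPKM (log2 fold change 3.20, SE 0.13), against 0.73 in Trp53-/- cells (adjusted p of the difference 1.44e-05).

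**Figure D4:**
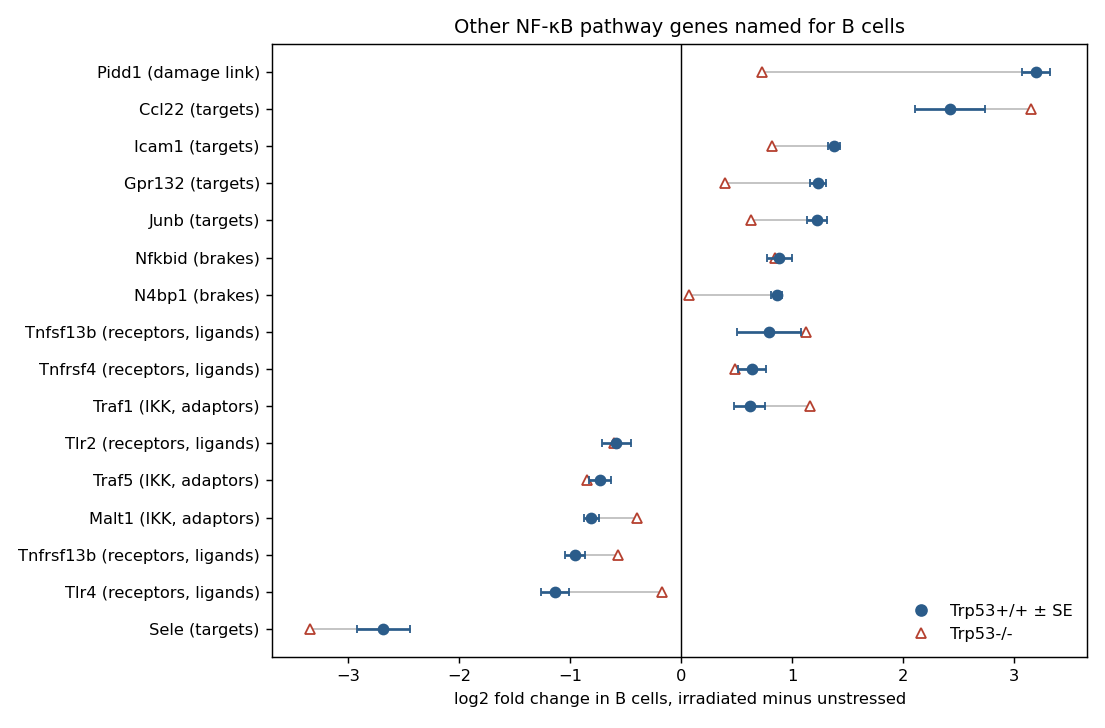
Log2 fold change in B cells after IR (irradiated minus unstressed) of pathway genes named for Trp53+/+ B cells, as blue circles with SE for Trp53+/+ (n = 4 against 4) and red open triangles for Trp53-/- (n = 2 against 2), with the role of each gene in brackets. Pidd1 and N4bp1 show wide gaps between genotypes (3.20 against 0.73 and 0.86 against 0.07), and Nfkbid lies at 0.88 and 0.85. The genes were chosen by their change in Trp53+/+ cells, which favours such gaps.

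In Trp53+/+ non-B cells 12 of 36 target genes rose and none fell, with a median log2 fold change of 0.42, where 5.74% of all genes rose, and in Trp53-/- non-B cells 0 were called by limma, against 0.442% of all genes. Genes of cytokines and other inflammatory mediators were among the largest, with Cxcl2 at 1.01 RPKM in unstressed and 6.85 RPKM in irradiated cells (log2 fold change 2.47), Ptgs2, the cyclooxygenase COX-2, at 2.28 and 12.03 RPKM (2.28) and Il12b at 2.10 and 6.13 RPKM (1.35). Of these 3, the response of Il12b differed between genotypes (adjusted p 0.0149). Over the list, the genotype difference passed for 3 of the 36 target genes, all larger in Trp53+/+ cells, beside 7.35% of all genes. With 2 samples per Trp53-/- group, the counts called in each genotype do not compare the genotypes. The genes named for non-B cells were also chosen by their change in Trp53+/+ cells, which favours a larger value there. The co-stimulatory receptors Tnfrsf9 (1.18) and Tnfrsf4 (0.80) and the A20-binding inhibitor Tnip2 (0.66) rose, with genotype differences at adjusted p of 0.00544, 0.0214 and 0.0257. Pidd1 rose here too, by 1.51 (SE 0.23), the only 1 called of 11 damage link genes. Of the 24 receptors and ligands, 3 rose and 1 fell, where 4.11% of all genes fell. The gene that fell was Cd40lg, the CD40 ligand of T cells (21.4 to 10.9 RPKM, log2 fold change -0.89, adjusted p 0.0479), and the third that rose was Il1b, the cytokine IL-1β (62.5 to 119 RPKM, 0.96). Of 15 further brakes only Tnip2 was called, and of 26 genes of the IKK complex and its adaptors limma called 0. At an unadjusted p under 0.05 there were 8 of the 26, without a share of all genes to set beside them.

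Over the 24 samples, genes with the profile most like that of the 4 most variable members were sought among 14678 genes by Pearson's r of log2(RPKM + 0.5). For Tnfaip3 these were Klhdc4 (0.963), Snai1 (0.952) and Ergic1 (0.948), for Nfkbie Gripap1 (0.982), Zfp36l1 (0.977) and Fam129c (0.969), for Nfkb2 Hspg2 (0.973) and Gripap1 (0.967), and for Bcl3 Cnbd2 (0.915), Aaas (0.911) and Ier5 (0.910). The samples fall into groups by cell type and treatment and share their libraries, so these values describe likeness of profile only.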

How the data were processed

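The authors aligned reads of ribosome-depleted total RNA to mm9 and discarded all but 1 of identical reads. Processing notes name TopHat2 2.0.8 and featureCounts 1.4.5. The authors deposited RPKM per gene, rounded to 3 decimals. Their counts were not used here, and depth was estimated from the steps of low RPKM values, of which 56.5 to 69.7% fell within 0.1 of a whole read (20% by chance), so that it is approximate.

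Genes with RPKM above 1 in at least 1 Trp53+/+ sample of a fit were tested with limma 3.58.1 (eBayes with trend, R 4.3.3) on log2(RPKM + 0.5), a scale that understates changes of low genes. The 12 samples of each cell type, or the 16 Trp53+/+ samples for cell types, were fitted together, as no count model suits RPKM. A call needed a Benjamini-Hochberg adjusted p under 0.05 over all genes and an absolute log2 fold change above 0.58, and differences between responses the adjusted p alone. Shares of all genes at an unadjusted p under 0.05 were not counted. Simulated data used 1 assumed spread between samples for all genes and groups, which was not taken from these samples. With it, 84 of 100 genes changed by 0.7 and 100 of 100 changed by 1.5 (log2) were called in the Trp53+/+ B cell comparison. Python 3.11.15, pandas 2.3.3 and matplotlib 3.10.9 were used otherwise.

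The 10 members, all of them named, and the pathway and marker lists were chosen with earlier results of these data known, so that no count over them is independent evidence. From each pathway list, at most 5 genes per cell type were eligible to be named, those with the largest change among genes called in Trp53+/+ cells without overlap of groups. The genes of like profile were the 3 closest to each of the 4 members with the widest range of group means. Of the genes these rules name, 2 are not reported here. Alternatives were other pseudocounts, filters, scalings and thresholds, a receptor gene covariate, a replicate block, subsets of replicates and each sample left out. Deviations of same-numbered unstressed and irradiated Trp53+/+ samples correlated at 0.156 to 0.323 in non-B cells (4 pairs) and at 0.015 to 0.086 in B cells. The labels do not tie the numbers, and the main fit took none of these samples as paired. Among the non-B samples, those of replicates 1 and 2, and those of 3 and 4, also correlated across numbers at 0.129 to 0.316, so the data do not single out 4 pairs. The values printed are from the fit without the block, which changed no call of the 10 genes within a cell type.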

Additional observations from a re-analysis of the deposited data

Results flagged for a closer look

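In the 40 groups of 4 samples of the 10 genes, 2 groups had a sample far from the other 3 by Dixon's test, about the number that chance gives at 1 in 20. In unstressed Trp53+/+ B cells, replicate 2 was at 74.9 RPKM for Nfkb2, the others at 70.6 to 71.3, and replicate 4 was at 66.4 RPKM for Nfkbie, the others at 60.3 to 60.8. Both lay well under all irradiated samples of their genes. The response of Bcl3 to IR differed between genotypes in B cells by 0.50 on the log2 scale (adjusted p 0.0233, limma). Its 4 irradiated Trp53+/+ samples were higher than both Trp53-/- ones, as were those of Rel, Nfkb2 and Nfkbie, which were not called.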

How the results depend on the processing

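Of 2500 values of single genes under the alternatives, none of the called ones changed sign, 20 lost and 33 gained a call, and 103 uncalled values changed sign. In Trp53+/+ B cells, where 5 genes were called after IR, 8 were with no fold threshold, 1 with a threshold of 1, 2 after quantile normalization or with the receptor gene covariate, 7 with replicates 1 and 2 alone (Rel and Nfkbib added), 3 with replicates 3 and 4 alone or without the libraries over 30% of receptor genes, and 2 to 5 with each sample left out. In each of these that kept the threshold of 0.58, the genes that lost their call had adjusted p of at most 0.011 and fell under the fold threshold, and Tnfaip3 and Bcl3 kept theirs. In Trp53-/- B cells 6 were called without a fold threshold in place of 1. The genotype difference in B cells, called for 1 gene, was called for 2 with median-ratio scaling, quantile normalization or Trp53+/+ replicates 1 and 2 alone, for 0 with replicates 3 and 4 alone, and for 0 to 2 with each sample left out, 0 without replicate 1 or 2 of unstressed or replicate 2 of irradiated Trp53-/- cells. In Trp53+/+ non-B cells 5 were called without a fold threshold, 0 with a threshold of 1, 2 with the receptor gene covariate, and 1 to 2 with each sample left out. Between unstressed B and non-B cells, 5 were called without a fold threshold, 0 with a threshold of 1, 3 with a pseudocount of 0.1, with replicates 1 and 2 alone or with the ceiling undone, 2 with the covariate, and 1 to 3 with each sample left out. Except where stated, the cause of these changes was not tested. Leaving out the libraries over 30% of receptor genes, undoing the ceiling and joining B with non-B samples were chosen after seeing the data.

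With the replicate block, 5 genes were called in Trp53+/+ B cells and 1 in Trp53+/+ non-B cells, and it changed no other call of these genes within a cell type. Over all genes it moved the calls in Trp53-/- non-B cells from 62 to 17. For the cell type difference of the response, 0 genes were called, but 3 (Nfkbia, Nfkbib and Nfkbie) with a block that joined same-numbered B and non-B samples, and 0 to 2 with each sample left out. Depth of 4.67 to 10.92 M reads and 2 samples per Trp53-/- group limit the smaller differences. In data simulated with an assumed spread, not that of these samples, 42 of 100 genotype differences of 0.7 (log2) were called in B cells.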
